A study of Homo sapiens with 18 samples.

Results

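Promoter-proximal GR sites were defined as the GR binding regions (GBR) called after Hic-5 depletion whose summit lay within 1 kb of the transcription start site (TSS) of any transcript of a protein-coding gene in GENCODE release 44. Of 9533 GBR in the Hic-5 depleted list (siHic5/siNS), 949 met this rule, or 9.95% (95% Wilson interval 9.37 to 10.6%), and 8584 are called other GBR. GR ChIP-seq had been performed in U2OS-GRα, a derivative of the established human osteosarcoma line U2OS that stably expresses glucocorticoid receptor α, so that the receptor comes from an introduced gene in a single line. The siRNA acted for 48 h, and every group then received 100 nM dexamethasone (dex) for 1 h. In 4 groups a non-specific siRNA was given alone (siNS/siNS) or with an siRNA against Hic-5 (siHic5/siNS), CHD9 (siCHD9/siNS) or BRM (siBRM/siNS), and in the other 2 the Hic-5 siRNA was joined by that against CHD9 (siCHD9/siHic5) or BRM (siBRM/siHic5). Each group had 2 ChIP libraries and 1 input library, and its deposited peak list was made from the pooled pair, so each list is a single value per condition without replicate spread. Peak lists carry no expression data, and the degree of each depletion was not analysed here.

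GR is a ligand-activated nuclear receptor that binds glucocorticoid response elements (GRE), imperfect palindromes of a pair of hexamers, and it also meets DNA alongside other factors such as AP-1. Most GR sites in mammalian cells lie far from TSS, whereas many promoters are CpG islands, stretches of GC-rich DNA that tend to be open in all cell types. Hic-5 (TGFB1I1) is a focal adhesion and nuclear coregulator of steroid receptors, and CHD9 and BRM (SMARCA2) are ATP-dependent chromatin remodelers.

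The sequences at sites on which the results turn are shown as examples of the consensus matches counted below. GRE matches were scored as AGAACA and TGTTCT 3 bases apart, with at most 2 mismatches over the 12 defined positions, on either strand and within the 200 bp centered on the summit. The first set gives 4 GBR that were called in all 6 lists and lie among the 10 strongest promoter-proximal GBR, with the GRE match in capitals and the GRCh38 plus strand shown. IP6K3 lies at chr6:33746277-33746351, SCNN1A at chr12:6376288-6376362, TPRG1 at chr3:188948085-188948159 and IL1R1 at chr2:102064275-102064349.
IP6K3: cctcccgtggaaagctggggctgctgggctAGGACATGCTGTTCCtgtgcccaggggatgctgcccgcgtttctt
SCNN1A: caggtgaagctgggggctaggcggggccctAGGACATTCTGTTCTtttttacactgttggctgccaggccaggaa
TPRG1: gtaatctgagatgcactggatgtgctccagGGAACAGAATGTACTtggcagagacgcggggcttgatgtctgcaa
IL1R1: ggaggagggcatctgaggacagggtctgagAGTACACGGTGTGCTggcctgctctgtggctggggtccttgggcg

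The SCNN1A match had 1 mismatch to the GRE pattern, and the other 3 had 2 mismatches each. Its center lay 4 bp from the summit in SCNN1A and 8 bp from it in IP6K3. The second set gives GBR that were absent from siNS/siNS, again with the GRE match in capitals on the plus strand. EDN3 (chr20:59300182-59300256) was recovered in both doubly depleted lists, BECN1 (chr17:42815277-42815351) and ACOT7 (chr1:6385835-6385909) in neither, and SGK1 (chr6:134175994-134176068), PER1 (chr17:8151882-8151956) and CIART (chr1:150281824-150281898) belong to genes regulated by glucocorticoids or to the circadian clock.
EDN3: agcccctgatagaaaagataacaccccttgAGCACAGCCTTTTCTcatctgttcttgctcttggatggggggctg
BECN1: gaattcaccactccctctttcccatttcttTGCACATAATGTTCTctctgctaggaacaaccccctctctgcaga
ACOT7: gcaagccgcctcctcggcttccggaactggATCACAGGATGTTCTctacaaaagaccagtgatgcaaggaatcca
SGK1: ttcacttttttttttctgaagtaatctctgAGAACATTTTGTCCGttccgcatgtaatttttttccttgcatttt
PER1: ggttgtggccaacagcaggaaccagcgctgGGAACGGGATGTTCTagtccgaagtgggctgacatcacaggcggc
CIART: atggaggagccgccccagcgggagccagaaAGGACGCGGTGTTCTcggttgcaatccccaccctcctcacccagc

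The match at SGK1 keeps the left hexamer whole, and those at BECN1, ACOT7, PER1 and CIART keep the right hexamer whole. All 6 of these matches had 2 mismatches. The last set gives promoter-proximal GBR whose 200-bp window held no GRE match but an AP-1 (TGACTCA) or ETS (CCGGAAG or CAGGAAG) match, shown in capitals. FKBP5 (chr6:35728138-35728204) is on the plus strand and was called in all 6 lists, as was BHLHE40 (chr3:4978890-4978956) on the minus strand. NR1D1 (chr17:40101292-40101358), on the minus strand, was called after Hic-5 depletion alone. ANKRD11 (chr16:89316320-89316386, plus strand) and OLAH (chr10:15043819-15043885, minus strand) were absent from siNS/siNS and from siCHD9/siHic5 and present in siBRM/siHic5.
FKBP5: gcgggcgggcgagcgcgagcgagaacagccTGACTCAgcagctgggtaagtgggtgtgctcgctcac
BHLHE40: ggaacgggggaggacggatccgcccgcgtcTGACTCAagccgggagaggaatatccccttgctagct
NR1D1: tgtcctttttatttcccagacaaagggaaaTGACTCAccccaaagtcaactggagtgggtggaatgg
ANKRD11: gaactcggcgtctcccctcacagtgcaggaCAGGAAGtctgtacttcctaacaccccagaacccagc
OLAH: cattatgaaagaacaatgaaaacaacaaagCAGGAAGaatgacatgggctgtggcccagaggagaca

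The 949 promoter-proximal GBR lay at 906 of 20020 protein-coding genes (4.53%). Of the genes, 821 had 1 such GBR, 76 had 2, 8 had 3 and 1, PRKCH, which encodes a protein kinase C, had 4. The genes with 3 were CUEDC1, CYP4B1, ERCC1, GSN, ITGB1, KRT8, LFNG and LMNA. The windows of 1 kb around every annotated TSS cover 126 Mb, or 4.09% of the primary chromosomes, so a share of 9.95% of the list is above the share of the genome that the windows hold. With the canonical transcript of each gene alone, the windows cover 1.21% of the genome and held 435 of the GBR. The other 514 GBR (54.2%) were near an alternative TSS and not near a canonical one.

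Summits clustered just upstream of the TSS. The 100 bp before the nearest TSS held 138 summits, the preceding 100 bp held 119 and the 100 bp after it 107, whereas the outermost bins of 100 bp held 30 and 29. In all 562 of 949 summits (59.2%) were upstream of the nearest TSS, and the median distance to it was 258 bp. By annotation of every transcript, 524 summits (55.2%) fell in introns, 190 (20.0%) outside genes, 121 (12.8%) in UTRs and 52 (5.48%) in coding exons. Just inside the limit, over 500 and up to 1000 bp from a TSS, 26.9% of 283 GBR were also called in siNS/siNS, and just outside it, up to 2000 bp, 28.7% of 411 were.

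**Figure D1:**
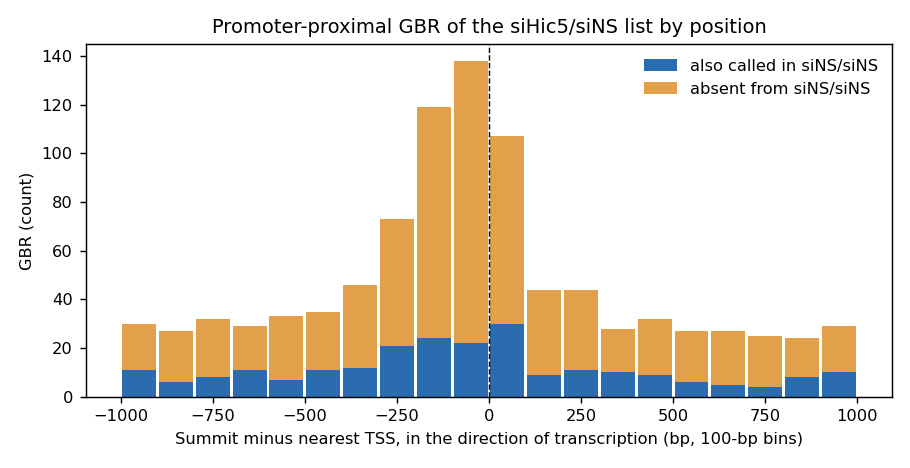
Counts of promoter-proximal siHic5/siNS GBR (y axis) in 100-bp bins of the signed distance from summit to nearest TSS (x axis, bp, negative upstream), with blue for GBR also called in siNS/siNS and orange for those absent from it. The bins from -200 to 100 bp are the fullest, with 119, 138 and 107 GBR.

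The promoter-proximal GBR consisted of a CpG-rich and a CpG-poor group. A 1-kb window was called CpG-rich when its GC content was at least 50% and its observed to expected CpG ratio at least 0.6. By this measure 312 of 949 promoter-proximal GBR (32.9%) were CpG-rich, against 152 of 8584 other GBR (1.77%). The CpG-rich share was 61.8% (269 of 435) near canonical TSS and 8.37% (43 of 514) near alternative TSS only. For comparison, 64.8% of the 19971 canonical TSS windows of the genome were CpG-rich. GBR near canonical TSS were thus CpG-rich nearly as often as canonical promoters at large, and those near alternative TSS much less often.

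Peak strength was similar near and far from TSS. The −log10 p-value of the peak caller had a median of 20.7 (quartiles 15.2 and 37.1) at promoter-proximal GBR and 22.5 (15.9 and 38.1) at other GBR. CpG-rich members had a median of 18.2 and CpG-poor members one of 21.7. Promoter-proximal GBR made up 10.9% of the strongest decile of the list (104 of 953), 7.66% of the third decile (73 of 953) and 12.6% of the weakest decile (120 of 954), so their share was lowest among GBR of intermediate to high strength and highest at the weak end. Their peaks were wider, with a median of 577 bp against 499.5 bp.

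The strongest promoter-proximal GBR were called in every condition. The 10 strongest were at IP6K3, NFKBIA, FKBP5, MT2A, MT1E, TPRG1, DECR1, IL1R1, SCNN1A (shared with LTBR) and ZBTB16, and all 10 were called in all 6 lists. Of all siHic5/siNS GBR, 9.25% were called in all 6. Calls rose with strength at other GBR too. In their strongest decile 94.8% were called in siNS/siNS, 94.0% in siCHD9/siHic5 and 98.7% in siBRM/siHic5. In siCHD9/siNS and siBRM/siNS the shares were 81.3% and 78.9%. Recovery in every list is thus not shown to be particular to promoter-proximal GBR. Since the −log10 p-value depends on the depth of a list, sites are described below by the rank within each list. The lists differ in length (9533 GBR in siHic5/siNS, 2582 in siNS/siNS, 2451 in siCHD9/siHic5, 3383 in siBRM/siHic5, 1415 in siCHD9/siNS and 1278 in siBRM/siNS) and in cutoff, so a rank gives the place in its own list, and ranks of different lists do not measure a change between conditions.

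IP6K3, an inositol hexakisphosphate kinase gene, held the strongest GBR of the whole siHic5/siNS list. Its summit was 542 bp inside the gene, in an intron, and its −log10 p-value of 317 ranked 1 of 9533. It ranked 7 of 2582 in siNS/siNS (212), 25 of 2451 in siCHD9/siHic5 (172), 15 of 3383 in siBRM/siHic5 (354), 33 of 1415 in siCHD9/siNS (105) and 24 of 1278 in siBRM/siNS (92.8). It was thus among the leading sites of every list.

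NFKBIA encodes IκBα, the inhibitor that holds NF-κB in the cytoplasm, and its GBR ranked 2 in siHic5/siNS (−log10 p-value 316). Its ranks in siNS/siNS, siCHD9/siHic5, siBRM/siHic5, siCHD9/siNS and siBRM/siNS were 3, 4, 4, 7 and 5. FKBP5, the co-chaperone that lowers the ligand affinity of GR, ranked 3 in siHic5/siNS and 5, 1, 3, 1 and 3 in those lists. These GBR stayed within the top 7 of all 6 lists.

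The metallothionein genes, whose products bind zinc and copper, had GBR of unequal strength. MT2A ranked 4 in siHic5/siNS, then 10, 9, 5, 10 and 11 in siNS/siNS, siCHD9/siHic5, siBRM/siHic5, siCHD9/siNS and siBRM/siNS. MT1E ranked 9 in siHic5/siNS but 69, 94, 37, 154 and 151 in the same order. MT1X ranked 1197 in siHic5/siNS and 1294, 1309 and 2044 in the next 3 lists, and was absent from siCHD9/siNS and siBRM/siNS. The genes of this cluster are close paralogs, and how reads with several matches were assigned is not given in the sources used here, so their separate values are uncertain.

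SCNN1A, a subunit of the epithelial sodium channel and one of 6 genes that the study used as representatives, had a GBR 293 bp upstream of its nearest TSS. It ranked 54 in siHic5/siNS and 21, 23, 43, 18 and 7 in siNS/siNS, siCHD9/siHic5, siBRM/siHic5, siCHD9/siNS and siBRM/siNS. It was thus near the top of all 6 lists. SPINK13, a protease inhibitor gene and the only other representative with a promoter-proximal GBR, ranked 280 in siHic5/siNS and 294, 328, 218, 298 and 168 in the others. The other 4 representatives had none in any list.

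The comparison of siHic5/siNS with siNS/siNS asks which promoter-proximal sites GR occupied when Hic-5 was present. Of the 949 GBR, 235 (24.8%, interval 22.1 to 27.6%) overlapped a siNS/siNS peak by at least 1 bp, beside 26% of all siHic5/siNS GBR. The other 714 (75.2%, beside 74% of all) were absent from siNS/siNS and are called blocked here, by peak overlap. Promoter-proximal and other GBR were compared within 10 strength groups of the list, deciles of its −log10 p-value, as a common odds ratio with a 95% interval that treats GBR as independent and covers counting error only. The odds of a siNS/siNS call were 0.913 times those of other GBR, with an interval of 0.732 to 1.14 that includes 1. At equal strength a difference in the share of blocked GBR between promoter-proximal and other GBR was not detectable with these counts. When GBR were matched by peak width in place of the −log10 p-value the odds ratio was 0.660 (0.559 to 0.779), and with an overlap of at least 50% of the peak it was 0.689 (0.557 to 0.850).

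Blocked promoter-proximal GBR were weaker than the shared ones. Their −log10 p-value in siHic5/siNS had a median of 17.7 (12 to 114) against 59.2 (12.9 to 317) at the 235 shared GBR, and their peaks spanned a median of 529.5 bp against 721 bp. In the strongest decile of the list 98 of 104 promoter-proximal GBR (94.2%) had a siNS/siNS call, in the second decile 61 of 93 (65.6%), in the third 29 of 73 (39.7%) and in the weakest 2 of 120 (1.67%). The same shares among other GBR were 94.8%, 66.9%, 38.8% and 1.80%.

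The 6 strongest blocked promoter-proximal GBR were at ANKRD11, ARMC8, NOL4L, EDN3, CSF3 and OLAH. ANKRD11, a chromatin regulator that binds histone deacetylases, ranked 367 in siHic5/siNS with a −log10 p-value of 114, and was otherwise called in siBRM/siHic5 alone, at rank 2058 of 3383. ARMC8, a subunit of the CTLH ubiquitin ligase complex, ranked 730 and was called in siCHD9/siHic5 (rank 593 of 2451) and in siBRM/siHic5 (rank 787). NOL4L ranked 844, 1305 and 2435 in siHic5/siNS, siCHD9/siHic5 and siBRM/siHic5. CSF3 encodes the granulocyte colony-stimulating factor, and the GBR 169 bp downstream of its TSS ranked 909, 1695 and 906 in siHic5/siNS, siCHD9/siHic5 and siBRM/siHic5. A second GBR 548 bp upstream of a CSF3 TSS ranked 6008 and was called in siHic5/siNS alone. EDN3, which encodes the peptide endothelin 3, ranked 883, 1563 and 1147 in those lists, and OLAH, a thioesterase gene of fatty acid synthesis, ranked 918 in siHic5/siNS and 1394 in siBRM/siHic5. All 6 were called in siBRM/siHic5 and none in siCHD9/siNS or siBRM/siNS. All 6 lie in the strongest decile of the siHic5/siNS list, where 98.7% of other GBR were called in siBRM/siHic5. Of all blocked GBR, 2.04% were called in siCHD9/siNS and 0.524% in siBRM/siNS. The pattern is therefore not shown to be particular to these sites.

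The double depletions ask whether GR occupancy in the absence of Hic-5 also needed CHD9 or BRM. Of the 949 promoter-proximal GBR, 215 (22.7%, 20.1 to 25.4%) were called in siCHD9/siHic5, beside 24.6% of all siHic5/siNS GBR, and 320 (33.7%, 30.8 to 36.8%) in siBRM/siHic5, beside 34.6%. At equal strength the odds ratio against other GBR was 0.822 (0.654 to 1.03) for siCHD9/siHic5 and 1.02 (0.828 to 1.27) for siBRM/siHic5. Both intervals include 1. Matched by peak width, the odds ratios were 0.583 and 0.649, with intervals below 1, and with the overlap of at least 50% that for siCHD9/siHic5 was 0.614. The lists were not cut at one level, since the lowest −log10 q-value was 7.74 in siCHD9/siHic5, 14.2 in siBRM/siHic5 and 8.91 in siHic5/siNS.

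Absence from siBRM/siHic5 with a call in siCHD9/siHic5 was the rarest outcome of the double depletions. With the 1-kb rule it was rarer at promoter-proximal than at other GBR. In all 611 (64.4%, beside 61.8% of all) were absent from both doubly depleted lists, 197 (20.8%, beside 21%) were called in both, 123 (13%, beside 13.7%) were absent from siCHD9/siHic5 only and 18 (1.90%, beside 3.61%) were absent from siBRM/siHic5 only. The last pattern held for 326 of 8584 other GBR (3.80%), with an odds ratio of 0.525 (0.325 to 0.849) at equal strength. This comparison was not planned, and its odds ratio is not given at other distances. With summits within 500 bp of a TSS the pattern held for 16 of 666 GBR and 328 of 8867 others. Within 2 kb the pattern held for 35 of 1360 GBR and 309 of 8173 others. At a common −log10 q-value cutoff of 14.2 it held for 0 of 590 promoter-proximal GBR and 60 of 5797 others, and when matched also by CpG class, an alternative chosen after seeing the data, the odds ratio was 0.602 (0.361 to 1.01).

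Loss after double depletion was much more frequent at blocked than at shared promoter-proximal GBR. Of 714 blocked GBR, 52 (7.28%) were called in siCHD9/siHic5 and 112 (15.7%) in siBRM/siHic5, against 163 (69.4%) and 208 (88.5%) of 235 shared GBR. The same shares over all siHic5/siNS GBR were 9.45% and 16.7% of 7059 blocked and 67.7% and 85.7% of 2474 shared GBR, so the contrast was near that of the whole list. The crude odds ratios of 28.8 and 41.4 became 3.94 (2.38 to 6.51) and 6.74 (3.77 to 12.1) within groups of equal strength. The reason for the fall was not tested. In all 588 blocked promoter-proximal GBR (82.4%, beside 79.5% of all blocked GBR) were absent from both lists, and these 588 were the GBR called in siHic5/siNS alone.

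**Figure D2:**
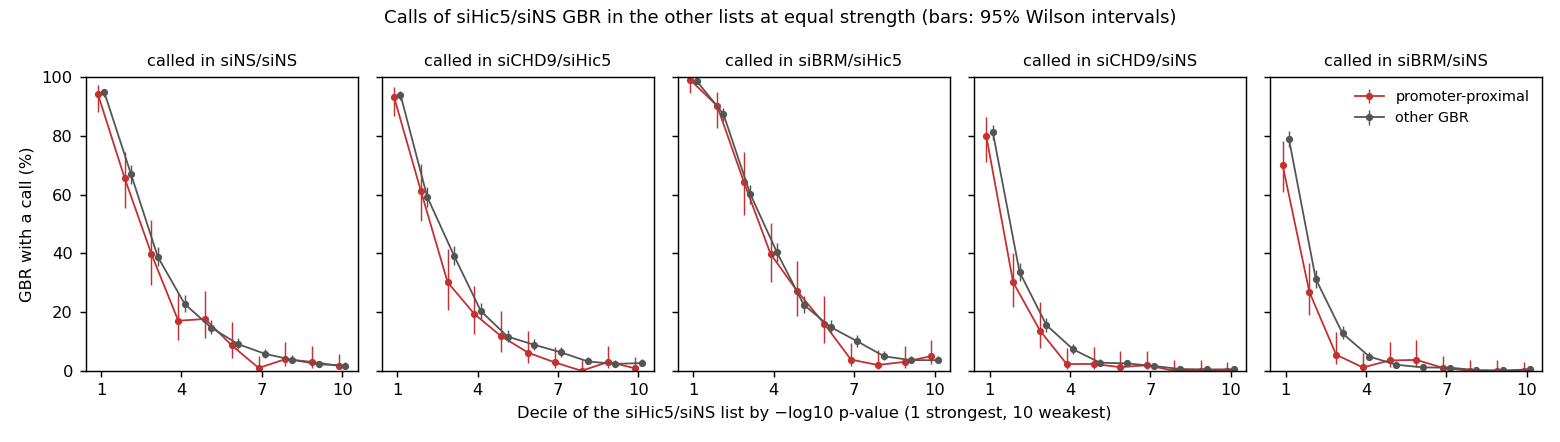
Percent of siHic5/siNS GBR with a call in each of the other 5 lists (y axis) by decile of the siHic5/siNS list in order of −log10 p-value (x axis, 1 strongest), with red for promoter-proximal GBR, gray for other GBR and bars for 95% Wilson intervals. Both curves fall steeply with strength. In the strongest decile the shares called in siNS/siNS are 94.2% and 94.8%, and those called in siBRM/siNS 70.2% and 78.9%.

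The single depletions ask about CHD9 and BRM in cells that contain Hic-5. Of the promoter-proximal GBR, 128 (13.5%, 11.5 to 15.8%) were called in siCHD9/siNS, beside 14.5% of all, and 110 (11.6%, 9.71 to 13.8%) in siBRM/siNS, beside 13.1%. The odds ratios at equal strength were 0.787 (0.595 to 1.04) and 0.693 (0.519 to 0.926). The lower odds of a siBRM/siNS call near TSS did not hold with canonical TSS alone, with an odds ratio of 0.940 (0.628 to 1.41). They turned to 1.09 (0.750 to 1.58) with one cutoff for all lists, and unmatched the odds ratio was 0.859 (0.697 to 1.06). Matched by peak width it was 0.573 (0.460 to 0.714), and by signal value 0.728 (0.553 to 0.958). With the overlap of at least 50% it was 0.564 (0.419 to 0.760). For siCHD9/siNS the odds ratio was 0.579 (0.469 to 0.714) when matched by peak width and 0.614 (0.464 to 0.813) with the overlap of at least 50%. Of the 235 shared promoter-proximal GBR, 117 (49.8%, beside 1236 of all 2474 shared GBR) were called in siCHD9/siNS and 108 (46.0%, beside 1210 of 2474, or 48.9%) in siBRM/siNS.

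Across all 6 lists, 86 promoter-proximal GBR (9.06%, beside 9.25%) were called everywhere, and 588 (62.0%, beside 58.7%) in siHic5/siNS only. The next most frequent patterns were a call in siBRM/siHic5 alone of the other lists (71 GBR), in siNS/siNS and siBRM/siHic5 (38), and in siNS/siNS and both doubly depleted lists (35). Shares of these patterns over all siHic5/siNS GBR are not given here, so their order is not shown to be particular to promoter-proximal GBR. The promoter-proximal share of each list was similar, from 8.69% of 1278 GBR in siBRM/siNS to 9.95% of 9533 in siHic5/siNS, with 9.41% in siNS/siNS, 9.67% in siCHD9/siHic5, 9.52% in siBRM/siHic5 and 9.12% in siCHD9/siNS. The intervals of these 6 shares overlap.

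The strongest GBR called in siHic5/siNS only were at BECN1, ACOT7, CRYAB (shared with HSPB2) and IFT140, at ranks 1414, 1451, 1546 and 1703. BECN1 encodes the autophagy protein beclin 1, ACOT7 an acyl-CoA thioesterase, CRYAB and its divergent neighbor HSPB2 small heat shock proteins, and IFT140 a protein of intraflagellar transport. GRE matches were present at BECN1 and ACOT7 and not at the CRYAB or IFT140 summits.

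Some shared promoter-proximal GBR were lost in one double depletion. The 3 strongest that were absent from siCHD9/siHic5 only were at CABIN1, a calcineurin inhibitor, CHST3, a chondroitin sulfotransferase, and KCNG1, a potassium channel subunit, at siHic5/siNS ranks 623, 830 and 856. KCNG1 ranked 295 of 2582 in siNS/siNS and 1391 of 3383 in siBRM/siHic5. The 3 strongest absent from siBRM/siHic5 only, at ZMYND8, SEC14L1 and ENKUR, ranked 941, 1965 and 2119 in siHic5/siNS but 2030, 2486 and 2556 of 2582 in siNS/siNS, so they were near the weak end of the control list. Those absent from both, at ATP11B, ST3GAL6 and ADNP, ranked 1330, 2461 and 2570.

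CpG-rich promoter-proximal GBR were called in siNS/siNS less often than CpG-poor ones, at 60 of 312 (19.2%) against 175 of 637 (27.5%), with a crude odds ratio of 0.629 (0.451 to 0.875). At equal strength it was 0.886 (0.551 to 1.42), which includes 1. A call in all 6 lists was found for 26 CpG-rich (8.33%) and 60 CpG-poor GBR (9.42%). The crude odds ratio was 0.874 (0.540 to 1.41), and that at equal strength was 2.22 (1.08 to 4.55). This comparison was not planned, and the intervals of all other comparisons of the CpG classes at equal strength include 1. Of the 252 blocked CpG-rich GBR, 39 (15.5%) were called in siBRM/siHic5, and of the 462 blocked CpG-poor GBR 73 (15.8%).

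GRE matches were less frequent at promoter-proximal GBR than at other GBR. The 200 bp around the summit held a match at 103 of 949 (10.9%, 9.03 to 13%) and at 20.5% of 8584 other GBR, with an odds ratio of 0.470 (0.380 to 0.581) at equal strength and 0.780 (0.625 to 0.972) with GC content and strength as covariates. Of the 19971 canonical TSS windows of the same length, 0.521% held a match. Near TSS, 14 of 312 CpG-rich GBR (4.49%) and 89 of 637 CpG-poor GBR (14%) held a GRE match, against 0.162% and 1.18% of canonical TSS windows of these classes. The shares at GBR were above those at TSS in general in both classes, and below that of other GBR. Matches lay close to the summit: within 1 kb centered on it the nearest match was at a median distance of 38.5 bp for the 134 GBR that had one.

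GRE matches followed peak strength near TSS. The share was 22.1% in the strongest decile (23 of 104) and 3.33% in the weakest (4 of 120), whereas for other GBR it was 30.3% and 17.9%. It was 18.7% at shared and 8.26% at blocked promoter-proximal GBR, and 22.1% at the 86 called in all 6 lists. Several of the strongest sites, at NFKBIA, FKBP5, MT2A, MT1E and ZBTB16, had no match at 2 mismatches, and 3 of these, NFKBIA, FKBP5 and MT2A, had one when 3 mismatches were allowed.

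AP-1 matches were found at 154 promoter-proximal GBR (16.2%) and 19.8% of other GBR, with an odds ratio of 0.784 (0.654 to 0.939), against 2.11% of canonical TSS windows. The share was 7.37% in CpG-rich and 20.6% in CpG-poor members, the latter close to other GBR. ETS matches were found at 163 (17.2%), 15.0% and 18.8%, with an odds ratio of 1.18 and an interval of 0.984 to 1.41 that includes 1. The direction of the ETS comparison was not settled by these data, since the odds ratio was 1.45 (1.27 to 1.66) in 1-kb windows and 0.800 (0.659 to 0.971) with GC content and strength as covariates. The ETS share was 17.1% at blocked and 17.4% at shared promoter-proximal GBR. GC boxes (GGGCGG), bound by SP and KLF factors, were found at 34.6% of promoter-proximal and 8.06% of other GBR. In CpG-rich GBR near canonical TSS that share was 71.0%, against 71.3% of CpG-rich canonical TSS windows. All motifs were searched on both strands, and a match is a description of sequence and not of binding.

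Other sequence motifs found at promoters were counted in the same windows. CRE matches (TGACGTCA), the target of CREB, were found at 1.16% of promoter-proximal and 0.349% of other GBR, with 2.00% at canonical TSS windows, and DUSP1 was one such site. E-boxes (CACGTG) were found at 5.90%, 3.39% and 5.65%. TATAAA was found at 3.79%, 9.26% and 6.66%, and CCAAT at 16.2%, 19.3% and 25.2%. The 10-base NRF1 palindrome was found at 1 promoter-proximal GBR and at 1.24% of canonical TSS windows.

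**Figure D3:**
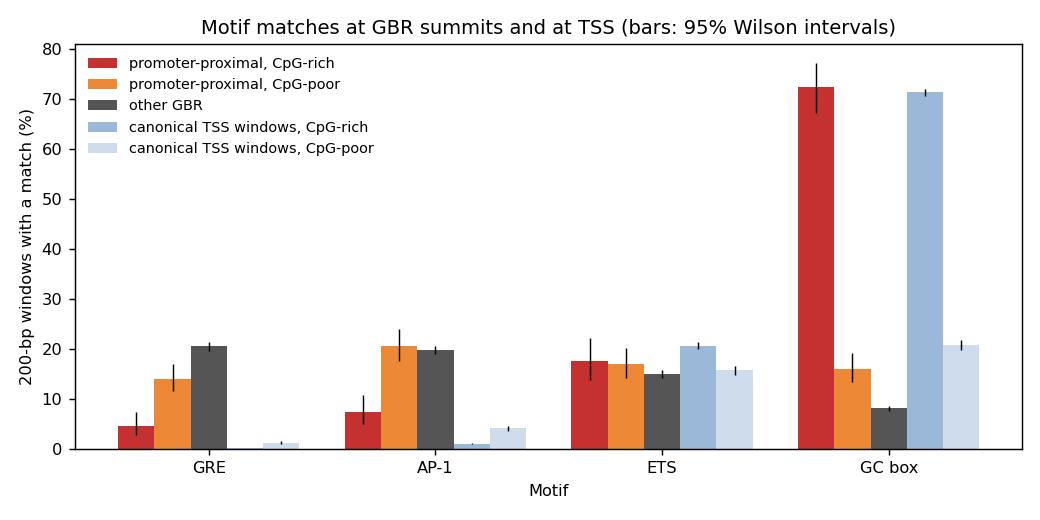
Percent of 200-bp windows with a GRE, AP-1, ETS or GC box match (y axis) for CpG-rich and CpG-poor promoter-proximal GBR, other GBR, and CpG-rich and CpG-poor windows at canonical TSS, with 95% Wilson intervals. GRE and AP-1 shares are 4.49% and 7.37% in CpG-rich and 14% and 20.6% in CpG-poor promoter-proximal GBR, all above those of TSS windows of the same class, and the GC box share in CpG-rich GBR is like that of CpG-rich TSS.

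Genes known to be induced by glucocorticoids often had a promoter-proximal GBR. Of a list of 55 such genes, 20 (36.4%, 24.9 to 49.6%) had one in siHic5/siNS, beside 4.53% of all protein-coding genes, and 12 (21.8%) in siNS/siNS, beside 1.21%. In siCHD9/siHic5 there were 14 (beside 1.15%), in siBRM/siHic5 15 (1.62%), in siCHD9/siNS 10 (0.654%) and in siBRM/siNS 9 (0.569%). The 12 in siNS/siNS were all among the 20. The 9 with a GBR in every list were FKBP5, MT1E, MT2A, NFKBIA, PDK4, SCNN1A, SLC19A2, TIPARP and ZBTB16. This gene list and those below were chosen with earlier results of these data known, so their shares are descriptions only.

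PDK4, a kinase that restrains pyruvate oxidation, had a CpG-poor GBR 611 bp upstream of its TSS that ranked 962 in siHic5/siNS and 682, 745, 697, 617 and 903 in siNS/siNS, siCHD9/siHic5, siBRM/siHic5, siCHD9/siNS and siBRM/siNS. ZBTB16, a transcriptional repressor, ranked 61 and 27, 56, 61, 26 and 54, and SLC19A2, a thiamine transporter, 91 and 114, 121, 59, 218 and 166. TIPARP, an ADP-ribosyltransferase, ranked 1644 and 1079, 856, 899, 693 and 772. LIFR, the receptor of leukemia inhibitory factor, was called in 5 lists and absent from siBRM/siNS.

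Others of the 20 genes had a GBR after Hic-5 depletion and not in siNS/siNS. SGK1, a kinase that raises sodium channel activity, had one 32 bp upstream of an alternative TSS, which ranked 3969 of 9533 in siHic5/siNS, 1851 of 2451 in siCHD9/siHic5 and 2116 of 3383 in siBRM/siHic5. PER1, a repressor of the circadian clock, ranked 4401, 2080 and 2007 in these lists. SNAI2, a repressor of epithelial genes, ranked 5566 in siHic5/siNS and 2630 in siBRM/siHic5. The GBR of ALOX5AP, BIRC3, CAVIN2 and DUSP1 were called in siHic5/siNS alone, at ranks 4171, 8689, 8680 and 9172. Those of BIRC3, CAVIN2 and DUSP1 were thus near the weak end of that list.

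Clock genes other than PER1 were represented by BHLHE40, CIART and NR1D1, so that 4 of 20 (20.0%, 8.07 to 41.6%, beside 4.53% of all genes) had a promoter-proximal GBR in siHic5/siNS and 1 (beside 1.21%) in siNS/siNS. BHLHE40, a repressor induced by many stimuli, was called in all 6 lists, at ranks 571, 788, 409, 659, 429 and 769 in siHic5/siNS, siNS/siNS, siCHD9/siHic5, siBRM/siHic5, siCHD9/siNS and siBRM/siNS. CIART and NR1D1, which encodes the heme receptor REV-ERBα, ranked 8114 and 7596 in siHic5/siNS and were absent from the rest.

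Transcription factor families contributed few sites each. Of 27 KLF and SP genes 3 (11.1%, 3.85 to 28.1%, beside 4.53% of all genes) had a promoter-proximal GBR in siHic5/siNS. KLF7 was called in all 6 lists, at ranks 198, 330, 299, 232, 352 and 276. KLF10 had a GBR near an alternative TSS in 5 lists (rank 838 in siHic5/siNS) and a weak one upstream of the canonical TSS in siHic5/siNS alone (rank 8931), and KLF3 ranked 8035 in siHic5/siNS alone. Among 14 AP-1 subunit genes 3 (21.4%, 7.57 to 47.6%, beside 4.53%) had one, JUND, FOS and FOSL2, and 0 had one in siNS/siNS, where the share of all genes was 1.21%. JUND ranked 2277 in siHic5/siNS and 2755 of 3383 in siBRM/siHic5, and FOS and FOSL2 ranked 6981 and 8639 in siHic5/siNS alone.

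Among 28 ETS factor genes 2 (7.14%, 1.98 to 22.6%, near the 4.53% of all genes) had a site, ERF, a repressor of the family (rank 2040), and ETV4 (rank 9354, shared with DHX8), and 0 had one in siNS/siNS, beside 1.21% of all genes. Of 7 C/EBP genes 1 did (14.3%, 2.57 to 51.3%, beside 4.53%), DDIT3, at a GBR shared with MBD6 that ranked 5771 and was called in siHic5/siNS alone.

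Inhibitors of inflammatory and growth factor signaling had a promoter-proximal GBR in 8 of 47 cases (17.0%, beside 4.53% of all genes) in siHic5/siNS and in 2 (4.26%, beside 1.21%) in siNS/siNS, NFKBIA and SMAD7. The SMAD7 GBR, at an inhibitor of TGF-β receptors, ranked 3950 of 9533 in siHic5/siNS, 2085 of 2582 in siNS/siNS and 2777 in siBRM/siHic5. PTPN1, a tyrosine phosphatase of the insulin receptor, ranked 2961 in siHic5/siNS and was also called in both doubly depleted lists. TNIP1 and TNIP2, which bind the NF-κB inhibitor A20, ranked 3968 and 3687, and the former was also called in siCHD9/siHic5. The phosphatase genes DUSP1 and DUSP2 and the RNA-decay factor gene ZFP36L1 were called in siHic5/siNS alone.

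Cytoskeleton and adhesion genes had one in 15 of 48 cases (31.2%, 19.9 to 45.3%, beside 4.53% of all genes) in siHic5/siNS and in 4 (8.33%, beside 1.21%) in siNS/siNS, ACTN1, KRT8, LMNA and MYH9. This list was chosen with earlier results of these data known, and the sites described for these genes were chosen after their values were seen. KRT8, a keratin gene, and LMNA, which encodes nuclear lamins A and C, had 3 GBR each, of which the strongest was called in all 6 lists. The strongest at KRT8 ranked 530, 431, 721, 535, 470 and 572 in siHic5/siNS, siNS/siNS, siCHD9/siHic5, siBRM/siHic5, siCHD9/siNS and siBRM/siNS, and that at LMNA 818, 1763, 867, 330, 960 and 1256. All 3 GBR at ITGB1, the integrin β1 gene, were called in siHic5/siNS alone, at ranks 3209, 3779 and 7980. The same held for 58.7% of all siHic5/siNS GBR and 62.0% of promoter-proximal ones, so it is not shown to be particular to ITGB1.

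At PRKCH, the gene with 4 GBR, the strongest ranked 1008 in siHic5/siNS, 1529 in siNS/siNS, 1699 in siCHD9/siHic5, 1766 in siBRM/siHic5 and 1188 in siCHD9/siNS. The other 3 ranked 2087, 3252 and 4544 and were called in siHic5/siNS alone, as were 58.7% of all siHic5/siNS GBR. Among cell cycle inhibitors and survival genes 2 of 37 (5.41%, near the 4.53% of all genes) had a GBR in siHic5/siNS. CDKN1A, the p21 inhibitor of cyclin-dependent kinases, ranked 817, 802, 1084, 573, 697 and 580 in the 6 lists, in the same order as for KRT8.

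Some large gene classes had few or no promoter-proximal GBR. None of 86 ribosomal protein genes, 78 mitochondrial ribosomal protein genes or 73 histone genes had one in any of the 6 lists, and the upper limits of the 95% Wilson intervals are 4.28%, 4.69% and 5.00%, of which the first is below the 4.53% of all genes in siHic5/siNS. In the other lists at most 1.62% of all genes had one, so an absence there says little for classes of this size. C2H2 zinc finger (ZNF) genes had one in siHic5/siNS in 10 of 508 cases (1.97%, 1.07 to 3.59%). Solute carrier genes were not such a class, with 21 of 337 (6.23%, 4.11 to 9.34%), an interval that includes the 4.53% of all genes.

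**Figure D4:**
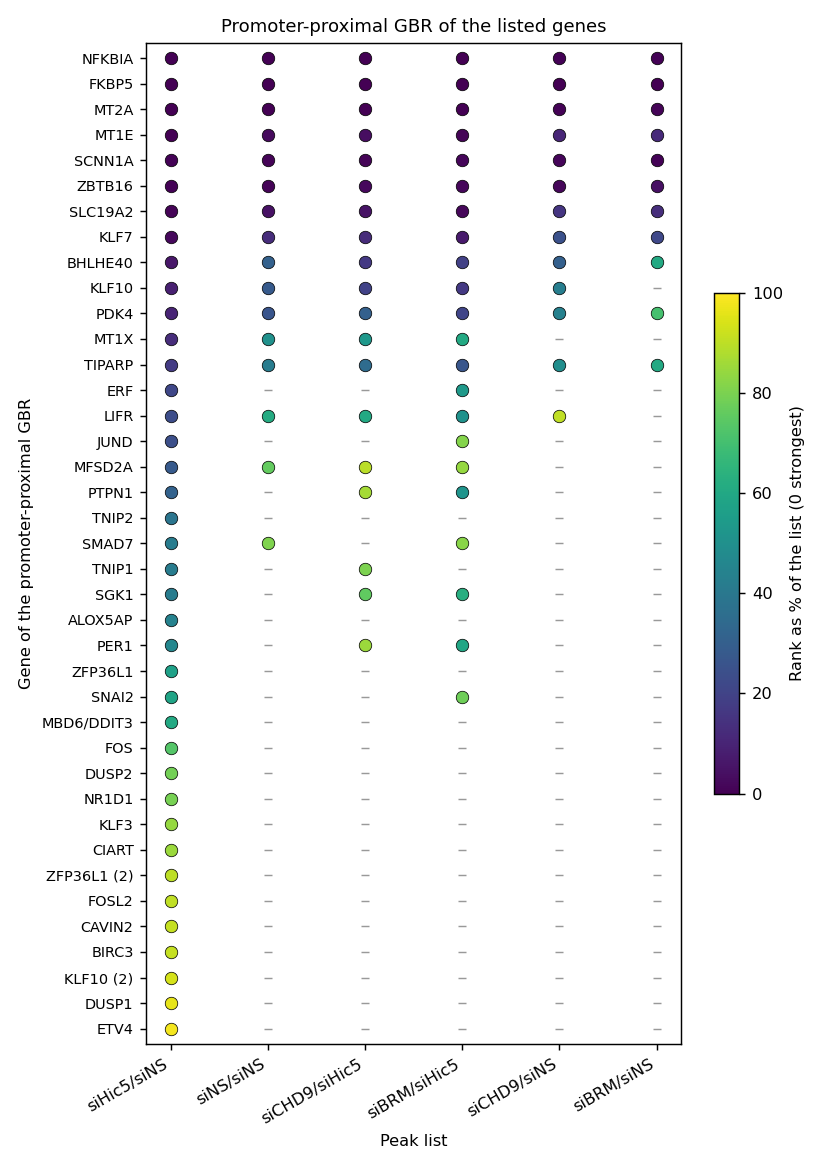
Promoter-proximal GBR of the regulatory genes reported here (y axis, in order of strength in siHic5/siNS) in the 6 peak lists (x axis), with circles for a call, colored by rank as percent of the list (0 strongest), and dashes for no call. NFKBIA, FKBP5, MT2A, SCNN1A and ZBTB16 are near the top of every list, and the GBR from FOS downward are called in siHic5/siNS alone.

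**Figure D5:**
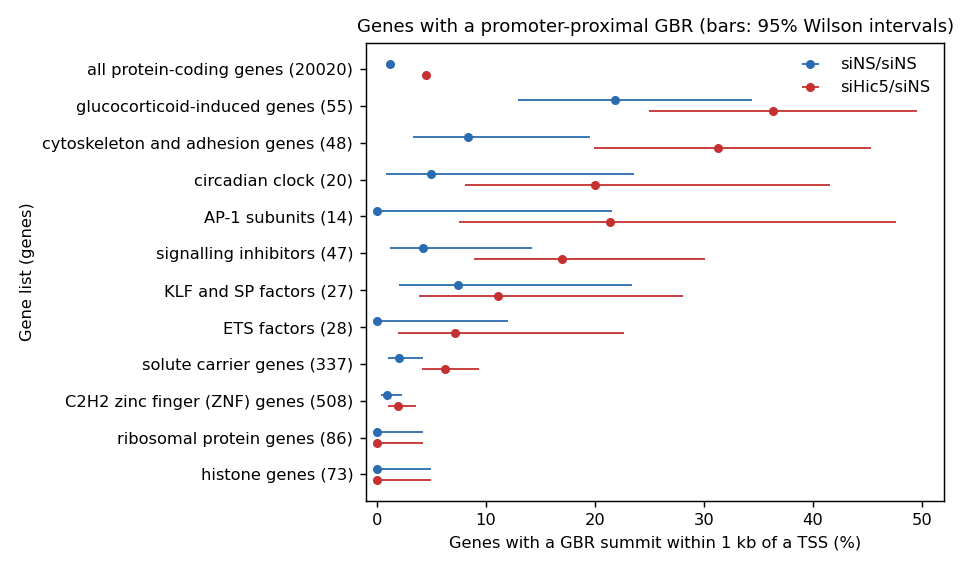
Percent of the genes of each list with a promoter-proximal GBR (x axis) in siNS/siNS (blue) and siHic5/siNS (red), with 95% Wilson intervals and the number of genes in parentheses (y axis). Glucocorticoid-induced genes are at 21.8% and 36.4%, all protein-coding genes at 1.21% and 4.53%, and ribosomal protein and histone genes at 0 in both. The gene lists were chosen with earlier results of these data known.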

How the data were processed

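GR ChIP-seq of U2OS-GRα cells comprised 12 ChIP libraries and 6 inputs in 6 siRNA groups taken from the sample labels. The authors aligned trimmed reads to GRCh38/hg38 (BWA), discarded duplicates and mitochondrial reads, and pooled each pair of replicates for peak calling by MACS2 within the IDR framework. Versions and the IDR threshold are not given in the sources used here. The deposited lists give a signal value per peak, which the peak format describes as fold enrichment and the study as average enrichment in CPM. The authors' −log10 p-value, and their −log10 q-value, which was used as a score, come from MACS2 and rise with depth, which differs between lists and which the lists do not give, so values were ranked within lists only.

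Summits were placed against all TSS of protein-coding genes in GENCODE release 44. Of the siHic5/siNS GBR, 3 on sequences without annotated genes were counted as other GBR. Calls were followed by overlap of at least 1 bp. Shares have Wilson intervals, and matched comparisons are Cochran-Mantel-Haenszel odds ratios over 10 strength groups, and cover counting error only. No test across replicates was possible. Overlap, odds ratios and motif search were tested on simulated data. Members and gene lists were chosen with earlier results of these data known. Named GBR were the 10 strongest, the 6 strongest blocked, the 4 strongest in siHic5/siNS only, the 3 strongest shared GBR lost in either or both double depletions, the 4 strongest blocked GBR called in both, and those at genes of the regulatory lists, of which 1 is not reported here. Sites of cytoskeleton and cell cycle genes, SPINK13, PRKCH and the second CSF3 site were named after their values were seen. Alternatives used other TSS sets, distances, overlaps, cutoffs, strength measures, motif windows and mismatches. Sequence was read with pysam 0.24.0, figures were drawn with Matplotlib 3.10.9, and statistics used statsmodels 0.14.6, pandas 2.3.3, SciPy 1.17.1 and NumPy 2.4.6 in Python 3.11.15.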

Additional observations from a re-analysis of the deposited data

How the results depend on the processing

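Of 121 recomputed values, 78 kept their direction and their side of the threshold or interval. No paired analysis was possible because each deposited list pools its replicates, and for the same reason no replicate could be left out. With canonical TSS only there were 435 promoter-proximal GBR, which made up 4.18% of siNS/siNS, 4.56% of siHic5/siNS, 4.24% of siCHD9/siHic5, 4.23% of siBRM/siHic5, 4.03% of siCHD9/siNS and 4.23% of siBRM/siNS. The matched odds ratio of a siNS/siNS call was then 1.01, that of a siBRM/siNS call 0.940, and GRE and AP-1 matches were found at 8.28% and 10.8%. With one −log10 q-value cutoff of 14.2 for all lists, 590 GBR remained (9.24% of siHic5/siNS), 52.4% were called in siBRM/siHic5, and the odds ratios for siCHD9/siNS and siBRM/siNS were 1.03 and 1.09. None of these GBR was then absent from siBRM/siHic5 only, so that odds ratio had no value. The 1000 strongest GBR of siHic5/siNS held 10.9% promoter-proximal GBR. With an overlap of at least 50% of the peak, the shares called were 19.2% in siNS/siNS, 16.9% in siCHD9/siHic5, 30.7% in siBRM/siHic5, 8.75% in siCHD9/siNS, 7.06% in siBRM/siNS and 4.64% in all 6 lists, and the odds ratios were 0.689, 0.614 and 0.843 for the first 3 and 0.614 for siCHD9/siNS. Matched by peak width instead of −log10 p-value, they were 0.660, 0.583, 0.649 and 0.579. For siBRM/siNS the odds ratio was 0.564 with that overlap and 0.573 by peak width. The odds ratio for siBRM/siHic5 was 0.969 when matched by signal value, 0.956 unmatched and 0.919 when matched by strength and CpG class, the last chosen after seeing the data, and that for siBRM/siNS was 0.859 unmatched. The odds ratio for absence from siBRM/siHic5 only was 0.602 by strength and CpG class. In 1-kb windows the GRE, AP-1 and ETS shares were 14.1%, 29.7% and 49.7%, with an ETS odds ratio of 1.45, which was 0.800 with GC content and strength as covariates. GRE shares were 2.32% with at most 1 mismatch and 36.0% with at most 3. The causes were not tested. Depth limits the weak end of every list, so absence from a list means no call there and not no occupancy.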

Other observations

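A few promoter-proximal GBR of the other lists had no overlapping siHic5/siNS peak. There were 18 of 237 in siCHD9/siHic5, 8 of 243 in siNS/siNS, 2 of 322 in siBRM/siHic5, 2 of 129 in siCHD9/siNS and 0 of 111 in siBRM/siNS. The strongest in siCHD9/siHic5 was at PARP2, a DNA repair enzyme, at rank 814 of 2451, followed by EGR1, an immediate early transcription factor, at rank 1465. Of 231 genes with a promoter-proximal GBR in siCHD9/siHic5, 216 also had one in siHic5/siNS and 15 did not. The 15 included the immediate early genes FOSB, JUN, EGR1 and RHOB and the actin genes ACTB and ACTG1. The rest were ARID5B, CARD14, CCDC107, CTSD, KRT19, OGFOD2, PARP2, PLA2G7 and a gene without a symbol. Of 14 AP-1 subunit genes 2, FOSB and JUN, had one in siCHD9/siHic5 (14.3%, 4.01 to 39.9%, beside 1.15% of all genes). Neither was among the 3 in siHic5/siNS. The siCHD9/siHic5 list reached down to a lower −log10 q-value (7.74) than siHic5/siNS (8.91). In siNS/siNS the strongest without a siHic5/siNS overlap was at ACTN1, which encodes an α-actinin that crosslinks actin filaments, at rank 1498 of 2582. These sites were chosen after their values were seen, and the differences between lists were not tested. The share without a siHic5/siNS overlap among all GBR of each list is not given here. The counts are therefore not shown to be particular to promoter-proximal GBR.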
